A study of Mus musculus with 188 samples.

Results

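The scavenger receptors Msr1, Marco, Colec12, Cd36, Scarb1, Olr1, Stab1 and Stab2 were followed across the aortas of the Hybrid Mouse Diversity Panel. The members are all probe sets that the array's annotation assigns to these 8 symbols. They came to 13 of the 22327 probe sets tested and to 8 of the 11725 genes that the named probe sets cover. Each probe set carried 1 symbol, and none of the 13 was left out by a filter. Msr1 had 4 probe sets, Cd36 had 3 and the other genes had 1 each.

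Aortic total RNA was profiled on 188 arrays of the Affymetrix HT_MG-430A short-oligonucleotide platform. The mice were males aged 16 weeks, kept on chow, untreated and labelled wild-type throughout. They belonged to 94 strains, of which 28 AXB and BXA strains (59 arrays) descend from A/J and C57BL/6J, 28 BXD strains (53 arrays) from DBA/2J and C57BL/6J, and 10 BXH strains (21 arrays) from C3H/HeJ and C57BL/6J. The remaining 28 inbred strains (55 arrays) include these 4 parents, with 2 arrays each of A/J, DBA/2J and C3H/HeJ and 3 of C57BL/6J. Each strain is 1 inbred genotype, 79 of the 94 strains had 2 arrays, and the strain names BXD24/TyJ-Cep290<rd16>/J and BXD29-Tlr4<lps-2J>/J carry alleles of Cep290 and Tlr4. Whether the arrays of 1 strain stand for different mice is not in the labels, so p-values measure only the spread among these arrays, part of which may be technical.

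Scavenger receptors are a mixed group of membrane proteins that bind modified lipoproteins, microbial surfaces and other polyanionic or lipid ligands and carry them into the cell. In the artery wall they are best known for the uptake of oxidised and acetylated low-density lipoprotein by macrophages, which turns these cells into foam cells. Other members act in other cells: Cd36 takes up fatty acids in fat and muscle, Scarb1 binds high-density lipoprotein in endothelium and steroid-producing glands, and the stabilins clear ligands such as hyaluronan from sinusoidal endothelium. They are described below by class, with class A first, then B, E and H.

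The aorta samples held several tissues. The smooth muscle genes Acta2 (11.05 to 13.13 over arrays, log2) and Myh11 (6.94 to 10.42) were present throughout, as were the brown fat gene Ucp1 (9.75 to 13.18) and the adipocyte gene Adipoq (11.02 to 12.53). Scores, each the mean of a marker list's values centred over the arrays, were above 1 for thymocyte genes on 36 arrays, for squamous epithelium on 40, for lung on 57 and for B cells on 31. In such bulk RNA, fewer cells of a type and less RNA per cell cannot be told apart. Some arrays went against their labels. Over 86 probe sets that mark strains, the median of each array's lowest correlation with its own strain was 0.902. These probe sets were picked for an ICC of at least 0.8, so this median is high by construction, and the exceptions are what the check can show. BXD19/TyJ replicates 1 and 2 correlated at 0.936 with each other and replicates 3 and 4 at 0.946, but across these pairs r was only 0.114 to 0.230, and replicates 1 and 2 correlated at 0.82 and 0.80 with a DBA/2J array. BXA16/PgnJ replicates 1 and 2 (r = 0.833) did not resemble replicate 3 (-0.0585 and 0.0725). Replicate 1 of KK/HlJ resembled replicate 1 of SJL/J (r = 0.956) more than its own replicate 2 (0.746). Results that rest on these 4 strains are given with and without them. The BXD32/TyJ arrays correlated at 0.849 and 0.828 with C57BL/6J arrays, more than with each other (0.655). They entered no comparison, which leaves 93 strains and 186 arrays, 78 of the strains with 2 arrays.

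**Figure D1:**
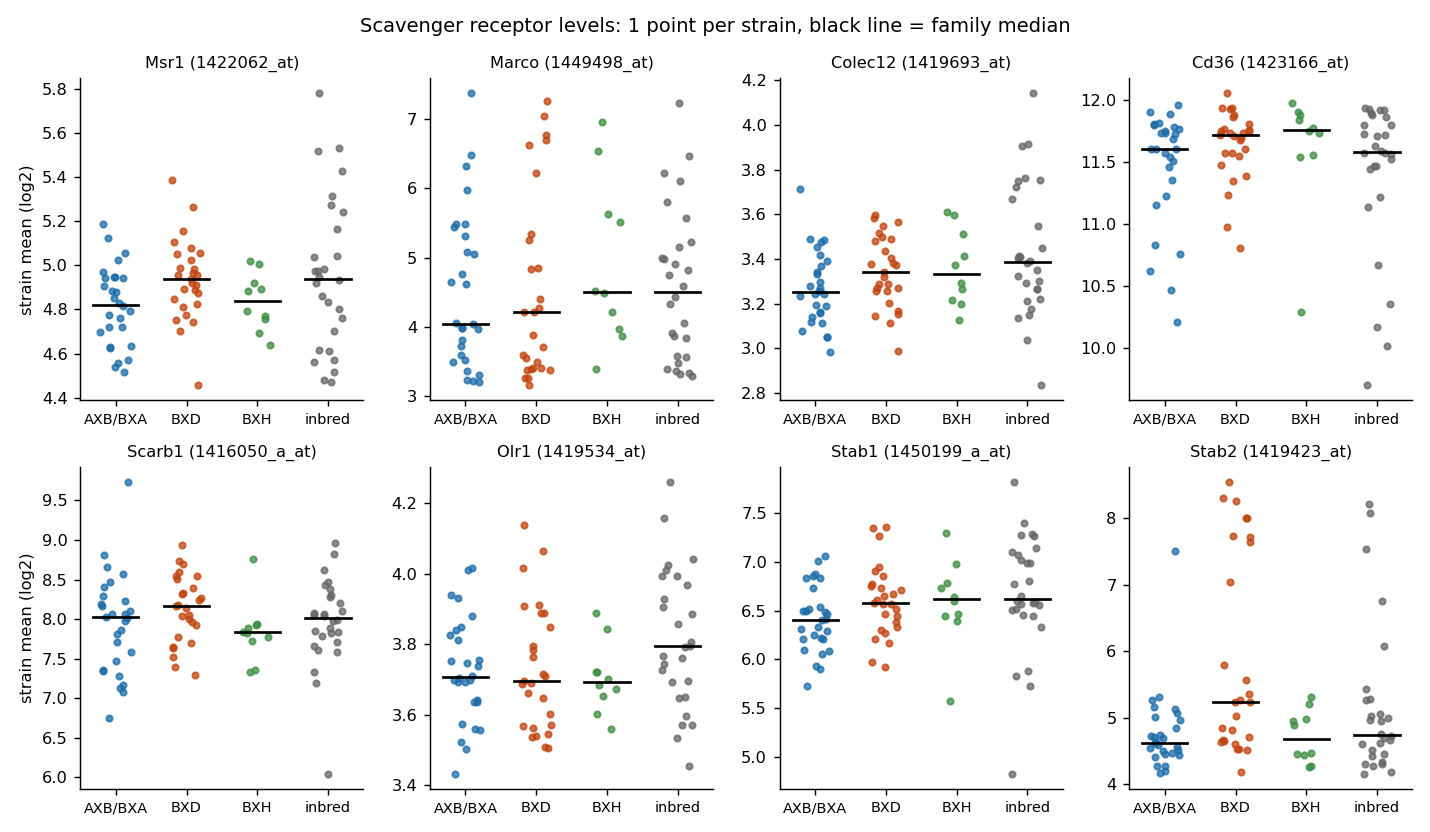
Strain means of the 8 scavenger receptors (log2, vertical axis; the scale differs between panels), 1 point per strain, for the AXB/BXA, BXD, BXH and inbred strains, with the family median as a black line and the probe set in each title. Stab2 falls into a low and a high group in the BXD strains, Marco spreads widely in every family, and Cd36 has a tail of low strains.

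The first comparison asked which of these genes differed between strains. Stab2, Stab1, Scarb1, Colec12, Marco and 1 of the 3 Cd36 probe sets did, while Msr1 and Olr1 did not pass. The strain effect, limma's moderated F test over the 84 strains with 2 or more arrays (177 arrays), was called at a Benjamini-Hochberg adjusted p below 0.05. It was called for 6 of the 13 member probe sets, beside 46.5% of all probe sets. By probe set, the share of calls among the scavenger receptors was close to that background. By gene, 6 of the 8 had at least 1 called probe set. No share over all genes was computed, and Msr1 and Cd36 had several probe sets each, so this count has no background. The intraclass correlation (ICC), which is the between-strain share of the variance of a probe set, had a median of 0.179 over the 13 probe sets and 0.182 over all. It was highest for Stab2 at 0.629 (95% interval 0.488 to 0.740), followed by Stab1 at 0.449 (0.272 to 0.599) and Scarb1 at 0.421 (0.240 to 0.577). Without the 4 strains that went against their labels these were 0.691, 0.463 and 0.434, and 5 member probe sets were called, Cd36 having dropped out.

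**Figure D2:**
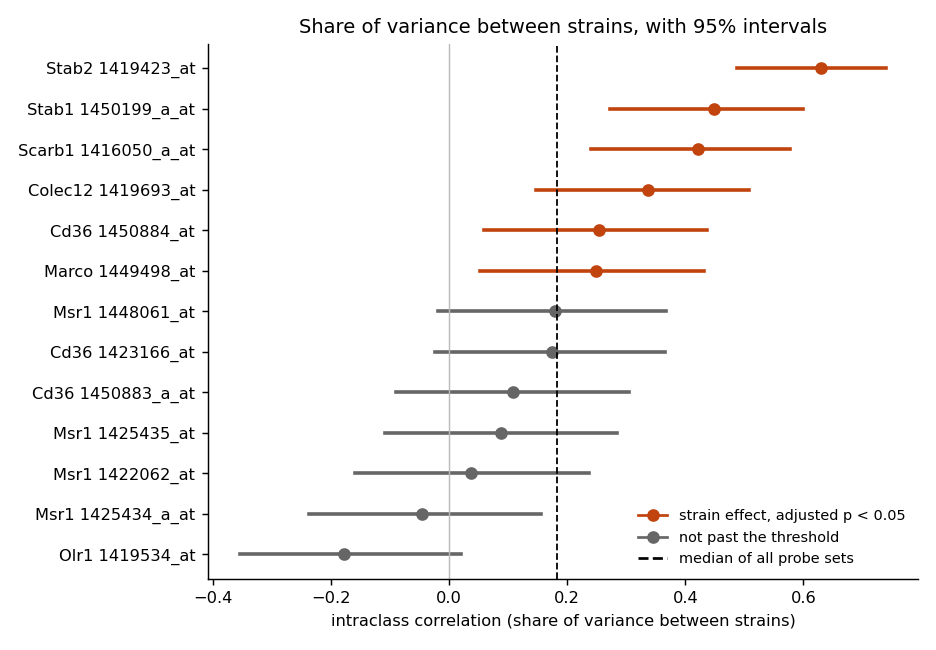
ICC of the 13 probe sets (horizontal axis, share of variance between strains) with 95% intervals as bars. Orange marks the 6 probe sets with a called strain effect, grey the others, and the dashed line the median of all probe sets (0.182). The intervals of Stab2, Stab1 and Scarb1 lie wholly above that median, and those of Olr1 and Msr1 1425434_a_at wholly below it.

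Msr1, the class A receptor of macrophages that first defined the family, varied little between strains. Its probe set with the highest mean, 1422062_at, had strain means from 4.46 in BXD1/TyJ to 5.78 in SEA/GnJ (log2; median 4.89) and an ICC of 0.0371 (adjusted p = 0.427, limma). The array extremes were 4.04 in C57L/J replicate 2 and 6.71 in SEA/GnJ replicate 2. SEA/GnJ replicate 1 lay at 4.85, close to the panel median, so the highest strain mean rests on 1 array. That array was 1 of the 4 with a macrophage score above 1 (1.18), and its B cell score was 2.54. The other probe sets, 1425434_a_at, 1425435_at and 1448061_at, were not called either (adjusted p = 0.779, 0.420 and 0.0631). Their strain means correlated with those of 1422062_at at 0.447, 0.459 and 0.513 over the 93 strains, so the 4 probe sets order the strains differently.

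One Msr1 probe set differed between families. At 1448061_at the AXB/BXA strain means averaged 3.56 ± 0.20 (SD, n = 28) and the BXD means 3.85 ± 0.32 (n = 27). The AXB/BXA strains spanned 3.19 to 4.03 and the BXD strains 3.26 to 4.44, so the families overlapped. The log2 difference was -0.29 (SE 0.0692, adjusted p = 0.00967, limma on 1 mean per strain). For the other 3 Msr1 probe sets it was -0.12, -0.03 and -0.01, with adjusted p from 0.199 to 0.889. For comparison, the 3 probe sets of Xist, a transcript of female cells, took values up to 4.63 in these males. At 1448061_at, 4 BXD arrays and 1 AXB/BXA array lay above that value, and the others at or below it. It was not called with replicate 1 of every strain alone (-0.24, adjusted p = 0.381), with replicate 2 alone (-0.33, adjusted p = 0.0797), or without the arrays with high thymocyte or squamous scores (-0.33, adjusted p = 0.112).

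In the parents, Msr1 1422062_at read 5.08 and 5.01 in A/J, 5.14 and 5.92 in DBA/2J and 5.37 and 5.26 in C3H/HeJ, against 4.93, 5.16 and 4.40 in C57BL/6J. Both C3H/HeJ arrays lay above all 3 C57BL/6J arrays, but no contrast passed (log2 difference 0.21, 0.70 and 0.48; adjusted p = 0.851, 0.823 and 0.494, limma). The largest parental difference of an Msr1 probe set was 0.89 at 1448061_at in C3H/HeJ against C57BL/6J (adjusted p = 0.242). These 3 parental comparisons share the C57BL/6J arrays. The genes whose strain means were most like those of Msr1 were the macrophage marker Adgre1 (r = 0.630 over 93 strains), the platelet factor Pf4 (0.585) and the integrin subunit Itgam (0.577). All such correlations across strains share the arrays they were measured on. Over the strains Msr1 also rose with the macrophage score (r = 0.344, rho = 0.250, adjusted p = 0.00352 over 24 relations, permutation test), the endothelial score (0.276, 0.314, adjusted p = 0.0227) and the adipocyte score (0.256, 0.306, adjusted p = 0.0346). Without the 2 strains farthest out r was 0.350, 0.244 and 0.237, and in the array number blocks it lay between 0.240 and 0.368.

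Marco, a class A receptor with a collagenous stalk, is known from macrophages of the splenic marginal zone, lymph node and lung. Its RefSeq promoter, shown because Marco had the widest spread between arrays of a strain among these genes, lies at chr1:120504975-120505274 on the minus strand of GRCm38.p6. It is printed 5′ to 3′ along the gene, and capitals mark GAGGAA, the core bound by the macrophage factor PU.1 and its ETS relatives, searched on both strands.
Marco: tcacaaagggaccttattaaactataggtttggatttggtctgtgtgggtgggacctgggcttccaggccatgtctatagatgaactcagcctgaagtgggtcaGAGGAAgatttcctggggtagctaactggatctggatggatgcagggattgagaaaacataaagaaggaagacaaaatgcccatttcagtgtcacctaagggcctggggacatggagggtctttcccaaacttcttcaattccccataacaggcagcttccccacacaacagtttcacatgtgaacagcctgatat
The motif occurred once here, and 28.3% of the 32851 promoters of this length held it, so its presence is a description only.

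Marco spread more within strains than between them. Arrays ran from 2.96 in BXA24/PgnJ replicate 2 to 9.85 in SEA/GnJ replicate 2 (median 4.15), and strain means from 3.15 in BXD11/TyJ to 7.38 in BXA13/PgnJ. The among-strain SD was 0.775 and the within-strain SD 1.35, with an ICC of 0.249 (0.0525 to 0.431; adjusted p = 0.0137, limma). The call was lost with the macrophage score as a covariate (adjusted p = 0.0887) and with only the first 2 arrays of each strain (0.0673). Some strains were high on every array. BXA13/PgnJ read 7.43 and 7.33, BXD2/TyJ 7.06 and 7.46, and BXH4/TyJ 6.32, 7.003, 6.77 and 7.74. Others split, with 9.64 and 3.75 in BXD22/TyJ and 4.63 and 9.85 in SEA/GnJ.

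Marco followed macrophage and B cell genes across strains. It correlated with the macrophage score at r = 0.557 and rho = 0.544 (adjusted p = 8e-05 over 24 relations, permutation test), at 0.552 without the 2 strains farthest out and at 0.674 and 0.442 in the array number blocks. Its relation to the endothelial score was negative (r = -0.240, rho = -0.314, adjusted p = 0.0448). Over the 93 strain means it correlated with the B cell score (Cd79a, Cd79b, Ms4a1 and Jchain) at r = 0.749 and rho = 0.751 (permutation p = 1e-05, the smallest that 100000 permutations can give, for r and for rho; adjusted p = 1.5e-05 over 3 relations chosen after seeing the data). Without the 2 strains farthest from the median score r was 0.722, and within the lower and upper blocks of array numbers it was 0.745 and 0.711 (44 strains each). With the score of node and spleen macrophage genes (Siglec1, Cd209b, Cd5l and Spic) r was 0.789 and rho 0.769, and with that of lung genes r was 0.112 and rho 0.101 (adjusted p = 0.285 and 0.331). The same held inside strains. Of the 78 strains with 2 arrays, 38 differed by more than 1 in Marco, and in 33 of these the B cell score differed the same way, in 34 the node and spleen macrophage score, and in 22 the lung score. The genes most like Marco over strain means were Cd209b (r = 0.849), a lectin of marginal zone macrophages, and the B cell genes Fcer2a (0.814) and Cd22 (0.792). With the B cell score as a covariate, the strain effect on Marco was still called (adjusted p = 0.00315). What part lymphoid tissue has in the Marco values was not tested beyond this.

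**Figure D3:**
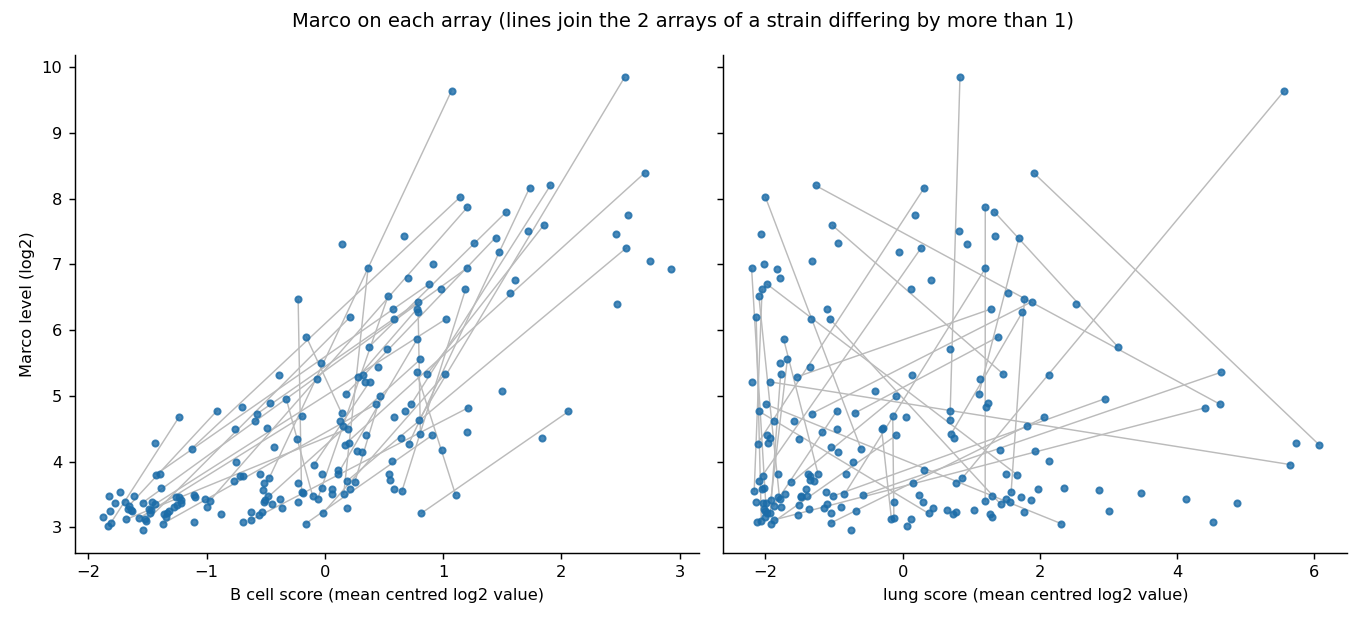
Marco level on each of the 186 arrays (log2, vertical axis) against the B cell score (left) and the lung score (right), both as mean centred log2 values. Grey lines join the 2 arrays of a strain where they differ by more than 1 in Marco. In 33 of 38 such strains the array higher in Marco is also higher in the B cell score, against 22 of 38 for the lung score.

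In the parents, Marco read 4.27 and 8.17 in C3H/HeJ, against 3.46, 3.15 and 3.26 in C57BL/6J. Both C3H/HeJ arrays were higher than every C57BL/6J array, but they lay far apart. The difference of 2.93 (7.60-fold; SE 1.21) was not called (adjusted p = 0.262, limma), and the higher C3H/HeJ array had a B cell score of 1.73. The C57BL/6J arrays and the lower C3H/HeJ array lay below the highest Xist value in these males (4.63). A/J (3.29 and 3.35) and DBA/2J (3.43 and 3.29) overlapped C57BL/6J, with adjusted p of 0.997 and 1. Marco was not called within AXB/BXA (adjusted p = 0.233), BXD (0.0525) or BXH (0.410).

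Colec12, a class A receptor with a lectin domain, also called SRCL and known from vascular endothelium, gave low values. Its arrays ran from 2.74 to 4.36, inside the range of Xist in these males. Even so, strain means repeated: CBA/J had 3.92 and 4.36, AKR/J averaged 3.92 ± 0.08 and LP/J 3.91 ± 0.28, against 2.79 and 2.88 in SJL/J (SD, n = 2 each). The ICC was 0.337 (0.147 to 0.507; adjusted p = 0.00201, limma), and 0.312 without the 4 strains that went against their labels, of which SJL/J is 1. The call was lost without the arrays with high thymocyte or squamous scores (adjusted p = 0.0576). C3H/HeJ arrays read 3.85 and 3.65, above the 3.04, 2.99 and 3.42 of C57BL/6J (log2 difference 0.60, SE 0.198, adjusted p = 0.129). Without C57BL/6J replicate 3 this contrast was called (0.73, adjusted p = 0.0325). Colec12 was most like Fam114a1 (r = 0.693), Fstl1 (0.674) and the collagen gene Col3a1 (0.664), and its own relations to the macrophage, adipocyte and endothelial scores did not pass (r = 0.0271, 0.192 and 0.0513).

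Cd36, the class B receptor for fatty acids and oxidised lipoprotein, was uniform in most strains and dropped sharply on a few arrays. At 1423166_at the array median was 11.70 and the highest array 12.20, while the 5 lowest were C57L/J replicate 1 (7.87), AXB23/PgnJ replicate 2 (8.79), KK/HlJ replicate 1 (8.85), BXH2/TyJ replicate 1 (9.04) and SJL/J replicate 1 (9.12). The other array of each of these strains lay between 11.20 and 11.64, so in all 5 the drop was not shared by the second array of that label. KK/HlJ replicate 1 and SJL/J replicate 1, both low here, are the pair that resembled each other in the label check (r = 0.956). The 3 probe sets moved together over strain means (r = 0.974, 0.968 and 0.925). The ICC was 0.175, 0.108 and 0.254 at 1423166_at, 1450883_a_at and 1450884_at, of which 1450884_at was called (adjusted p = 0.0123) and the others were not (0.0640 and 0.181, limma). The call was gained at 1423166_at with arrays centred on their medians (adjusted p = 0.0431), with only probe sets averaging above 5 (0.0422) and without C57L/J (0.0362). Without the 4 strains that went against their labels 1450884_at was not called (adjusted p = 0.0759).

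The beta-actin control, a measure of RNA quality, moved with Cd36. The difference between its 3′ and 5′ probe sets ran from 0.915 to 2.73 over arrays (median 1.57), and a larger difference means more 3′ bias. On the 5 lowest Cd36 arrays it was 0.915, 1.21, 1.06, 0.930 and 1.20. All were below that median, so these arrays had less 3′ bias than the median array, not more. Over the 93 strains it correlated with Cd36 at r = 0.517 and rho = 0.422 as a description, and at 0.507 without the 2 most extreme strains. For the other 7 genes r lay between -0.370 (Marco) and 0.195 (Colec12). On the same 5 arrays the brown adipocyte score was -1.27, -0.33, -0.35, -0.45 and -0.26, and the thymocyte score 4.13, -0.57, 3.05, 0.12 and 2.68. Of the 11 strains whose 2 arrays differed by more than 1 in Cd36, 10 differed the same way in the brown adipocyte score and 6 in the adipocyte score. The adipocyte score joins genes that moved in opposite ways. On C57L/J replicates 1 and 2, Fabp4 read 10.56 and 12.49 and Lpl 9.898 and 12.46. Lipe read 10.72 and 10.12 there and Pnpla2 5.843 and 4.285. Each of the 5 arrays differed from its partner in these directions. The brown adipocyte score was mixed as well. On AXB23/PgnJ replicates 2 and 1, Dio2 read 4.865 and 8.988, but Cox7a1 11.36 and 11.04 and Cox8b 12.92 and 12.44. On SJL/J replicates 1 and 2, Dio2 read 4.763 and 8.557, but Cox7a1 11.54 and 11.02 and Cox8b 12.83 and 12.49. On C57L/J replicates 1 and 2, Dio2 (3.635 and 6.757), Elovl3 (7.343 and 9.665) and Cox7a1 (10.68 and 11.13) moved the same way. What part any of these had in the drops was not tested. The genes most like Cd36 were Syap1 (r = 0.952), the phospholipase Pnpla8 (0.947) and Armc1 (0.946).

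Between strains of a family, Cd36 was called within BXD at 1423166_at and 1450884_at (adjusted p = 0.0353 and 0.0213), and at no probe set within AXB/BXA or BXH. There strain means ran from 10.81 in BXD2/TyJ to 12.06 in BXD28/TyJ at 1423166_at. Without BXD19/TyJ the first of these calls was lost (adjusted p = 0.0775), and the second held (0.0395). Both were lost without the arrays with high thymocyte or squamous scores (0.125 and 0.0997). In the parents 1423166_at read 11.93 and 11.91 in A/J, 11.11 and 11.95 in DBA/2J and 11.87 and 11.88 in C3H/HeJ, against 11.54, 10.24 and 11.86 in C57BL/6J. The differences of 0.70, 0.31 and 0.66 were not called (adjusted p = 0.705, 1 and 0.623), and 1 C57BL/6J array stood below all the others. Cd36 fell with the macrophage score over strains (r = -0.401, rho = -0.421, permutation p = 0.00012, adjusted p = 0.00072 over 24 relations), and in both array number blocks (-0.500 and -0.220).

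Scarb1, the class B receptor that exchanges cholesterol with high-density lipoprotein, differed between strains. Strain means ran from 6.04 in RIIIS/J (arrays 6.17 and 5.91) to 9.74 in BXA12/PgnJ (11.40 and 8.07), with a median of 8.02. The 2 RIIIS/J arrays were the lowest of the panel, whereas the top strain mean rested on 1 array. The ICC was 0.421 (adjusted p = 5.43e-05, limma). The BXA12/PgnJ array at 11.40 also carried adrenal cortex genes, which are known to go with high Scarb1: the steroidogenic regulator Star read 10.39, Cyp11a1 11.66, Cyp21a1 11.19 and Hsd3b1 12.47, against 5.19, 5.29, 5.17 and 7.55 on replicate 2. Its adrenal score of 7.45 was the highest of all arrays, and replicate 2 of the same strain was next (1.97). Without BXA12/PgnJ the ICC of Scarb1 was 0.489 and the call held (adjusted p = 2.21e-06). The highest strain means were then 8.96 in BTBR T<+> tf/J, 8.93 in BXD29-Tlr4<lps-2J>/J and 8.82 in C57BL/6J.

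Scarb1 rose with endothelial genes across strains. Its strain means correlated with the endothelial score (12 genes such as Cdh5, Kdr and Nos3) at r = 0.716 and rho = 0.682 (permutation p = 1e-05, the smallest they can give; adjusted p = 8e-05 over 24 relations). The value was 0.646 without the 2 strains farthest out (RIIIS/J and BXH9/TyJ), 0.730 without BXA12/PgnJ, and 0.787 and 0.644 within the array number blocks. Within strains, 11 of 78 differed by more than 1 in Scarb1, and in 10 of them the endothelial score differed the same way. The relation to the adipocyte score was weaker (r = 0.386, adjusted p = 0.00106) and was not called with replicate 1 alone (0.206, adjusted p = 0.0899). The RIIIS/J arrays, low in Scarb1 and in the endothelial score (-1.15 and -1.25), had thymocyte scores of 4.83 and 5.05. The genes most like Scarb1 were Cenpv (r = 0.735), the kinase gene Mapkapk2 (0.731) and the endothelial receptor Eng (0.718), which is on the endothelial list.

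In the parents Scarb1 read 8.05 and 7.73 in A/J, 8.71 and 8.24 in DBA/2J and 8.43 and 8.14 in C3H/HeJ, against 8.97, 9.36 and 8.14 in C57BL/6J. Both A/J arrays lay below all 3 C57BL/6J arrays, but the difference of -0.93 (SE 0.431) was not called (adjusted p = 0.511, limma). DBA/2J and C3H/HeJ overlapped C57BL/6J (-0.35 and -0.54; adjusted p = 1 and 0.608). Within the BXD family Scarb1 ran from 7.29 in BXD27/TyJ to 8.93 in BXD29-Tlr4<lps-2J>/J and was called (adjusted p = 0.0168). This call was lost without BXD19/TyJ (0.077) and with the thymocyte, squamous and skeletal muscle scores as covariates (0.0565). Within AXB/BXA it was not called (0.147) unless BXA12/PgnJ was left out (0.0443).

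Olr1, the class E lectin-like receptor for oxidised lipoprotein known from activated endothelium, gave low values with no strain pattern. Arrays ran from 3.21 in BXD28/TyJ replicate 2 to 4.92 in BTBR T<+> tf/J replicate 1, and the second array of each lay at 4.22 and 3.60. Arrays of a strain were no more alike than arrays of different strains, with an ICC of -0.178 (-0.354 to 0.0198; adjusted p = 0.978, limma). No parental or family contrast was called for Olr1, and its log2 differences lay between -0.33 (C3H/HeJ against C57BL/6J) and 0.03 (BXD against BXH).

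Stab1 and Stab2, the stabilins, make up class H. Both are large receptors with fasciclin and epidermal growth factor-like domains that are known from sinusoidal endothelium, and Stab1 also from alternatively activated macrophages. Their RefSeq promoters (GRCm38.p6) are shown because these related genes had the strongest strain effects of the group in the main fit and unlike strain patterns. Over 93 strain means r was -0.127, with low and high Stab2 strains pooled. Without BXA12/PgnJ the ICC of Scarb1 (0.489) was above that of Stab1 (0.45). Stab1 lies at chr14:31168592-31168891 and Stab2 at chr10:87007893-87008192, both on the minus strand, printed 5′ to 3′ along the gene with GAGGAA in capitals. The reference is that of C57BL/6J, so the sequence of the other strains is not shown.
Stab1: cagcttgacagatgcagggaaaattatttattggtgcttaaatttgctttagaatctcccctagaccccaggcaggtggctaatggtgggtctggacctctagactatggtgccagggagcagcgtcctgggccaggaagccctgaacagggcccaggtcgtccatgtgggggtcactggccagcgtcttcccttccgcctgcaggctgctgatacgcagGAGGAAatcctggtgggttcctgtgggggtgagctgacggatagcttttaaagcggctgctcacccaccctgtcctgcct
Stab2: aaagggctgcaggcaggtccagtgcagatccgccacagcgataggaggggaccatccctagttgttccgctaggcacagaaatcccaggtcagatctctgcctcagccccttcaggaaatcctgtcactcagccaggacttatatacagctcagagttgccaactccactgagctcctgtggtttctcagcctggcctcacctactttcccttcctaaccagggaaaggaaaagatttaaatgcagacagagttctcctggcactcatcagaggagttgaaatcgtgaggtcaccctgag
GAGGAA occurred once in the Stab1 window and 0 times in the Stab2 window. Neither window held TATAAA or TGANTCA, which 13.6% and 7.81% of all promoters of this length held on either strand. The search for member promoters, which left out a chromosome, kept those of 5 of the 8 genes.

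Stab1 levels followed endothelial genes across strains. Strain means ran from 4.82 in RIIIS/J (arrays 5.01 and 4.64) to 7.82 in BTBR T<+> tf/J (7.67 and 7.98), with a median of 6.56. The 2 arrays of each of these strains lay close together, and the ICC was 0.449 (adjusted p = 1.6e-05, limma). The call held in all 13 alternatives tried (adjusted p from 8.33e-06 to 0.000108). Stab1 correlated with the endothelial score at r = 0.707 and rho = 0.599 (permutation p = 1e-05, adjusted p = 8e-05), at 0.614 without RIIIS/J and BXH9/TyJ, and at 0.832 and 0.480 within the array number blocks. Its relation to the adipocyte score was weaker (r = 0.333, adjusted p = 0.00429), was 0.170 without RIIIS/J and BXA7/PgnJ, and did not pass by rank (rho = 0.211, adjusted p = 0.0661). That to the macrophage score did not pass (r = 0.211, adjusted p = 0.0711). The genes most like it were the globin Cygb (r = 0.824), the lysosomal hexosaminidase gene Hexa (0.805) and the small GTPase gene Rras (0.797). Among the scavenger receptors Stab1 was closest to Scarb1 (r = 0.595) and then Msr1 (0.431).

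**Figure D4:**
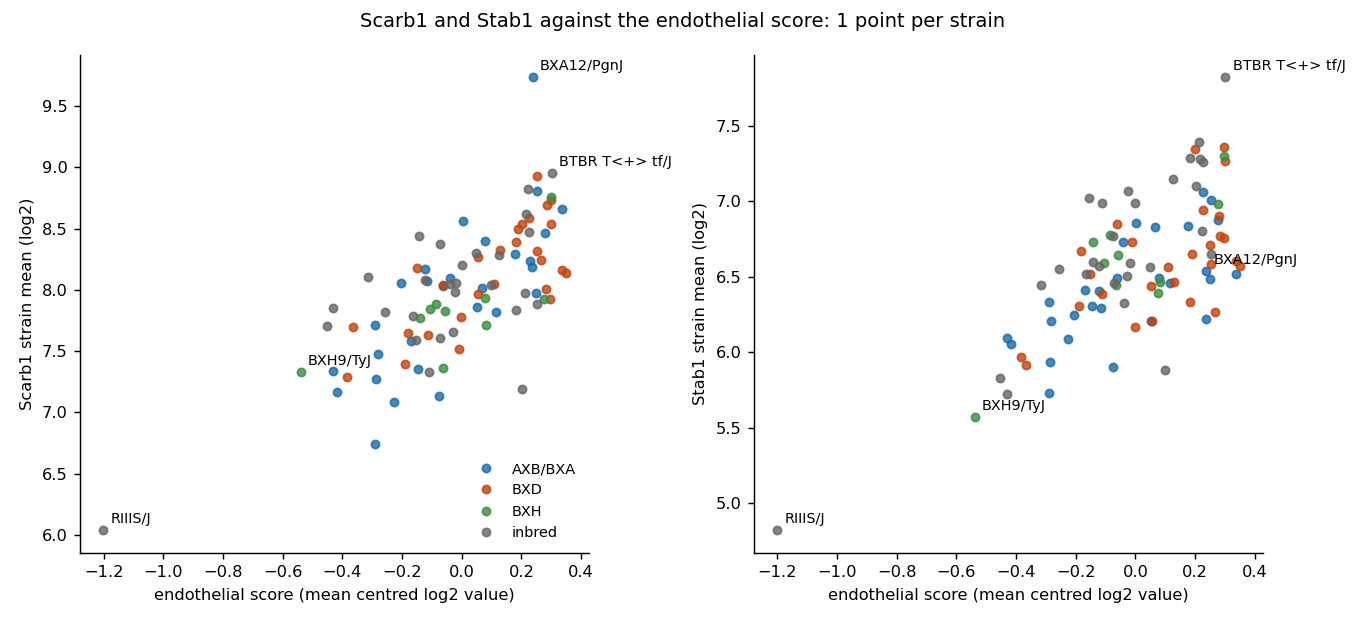
Strain means of Scarb1 (left) and Stab1 (right), log2, against the endothelial score (mean centred log2 value), 1 point per strain, coloured by family. Both rise with the score (r = 0.716 and 0.707 over 93 strains), RIIIS/J is lowest on every axis, and BXA12/PgnJ stands above the other strains for Scarb1 but not for Stab1.

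No parental difference in Stab1 was called. Its arrays read 6.42 and 6.89 in A/J, 7.22 and 7.30 in DBA/2J and 7.16 and 7.13 in C3H/HeJ, against 6.32, 7.45 and 6.64 in C57BL/6J. The C57BL/6J arrays spanned the whole range of the other parents (log2 difference -0.15, 0.45 and 0.34; adjusted p = 0.924, 1 and 0.724, limma). Within the BXH family Stab1 ran from 5.57 in BXH9/TyJ to 7.30 in BXH2/TyJ and was called at the edge of the threshold (adjusted p = 0.0494). This call was lost in each of the 6 alternatives run for it (0.0528 to 0.203).

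Stab2 had the largest strain effect of the group and split the BXD strains in 2. DBA/2J arrays read 7.79 and 7.31, against 4.58, 4.32 and 3.99 in C57BL/6J. The parents did not overlap, and DBA/2J was higher by 3.25 on the log2 scale (9.52-fold; SE 0.678, adjusted p = 0.00226, limma). The C57BL/6J arrays all lay below the highest Xist value in these males (4.63), so the fold is taken from values near background. Without DBA/2J replicate 1 the difference was 3.01 and not called (adjusted p = 0.141), while in the 11 other alternatives it stayed past the threshold. A/J (4.37 and 4.18) and C3H/HeJ (4.33 and 5.79) were not called against C57BL/6J, with differences of -0.02 and 0.76 (adjusted p = 0.996 and 0.654). Of the 13 member probe sets, calls numbered 0 for A/J, 1 for DBA/2J and 0 for C3H/HeJ, beside 0.645%, 0.524% and 1.25% of all probe sets.

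In the BXD strains 9 of 27 means lay nearer DBA/2J, between 7.05 and 8.55, and 18 nearer C57BL/6J, between 4.18 and 5.79. The high strains were BXD27/TyJ, BXD21/TyJ, BXD2/TyJ, BXD24/TyJ-Cep290<rd16>/J, BXD14/TyJ, BXD6/TyJ, BXD28/TyJ, BXD39/TyJ and BXD11/TyJ. All 15 of their arrays lay above 5.92, the midpoint of the parents, with the lowest at 6.94. In 19 of the 22 BXD strains with 2 or more arrays every array lay on 1 side of it. The exceptions were BXD19/TyJ (7.56, 6.78, 4.19 and 4.65), BXD22/TyJ (6.90 and 4.22) and BXD9/TyJ (4.48 and 6.23). In BXD19/TyJ the 2 high and the 2 low arrays are the same pairs that the strain-marking probe sets set apart, and the high pair is the one that resembled DBA/2J.

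**Figure D5:**
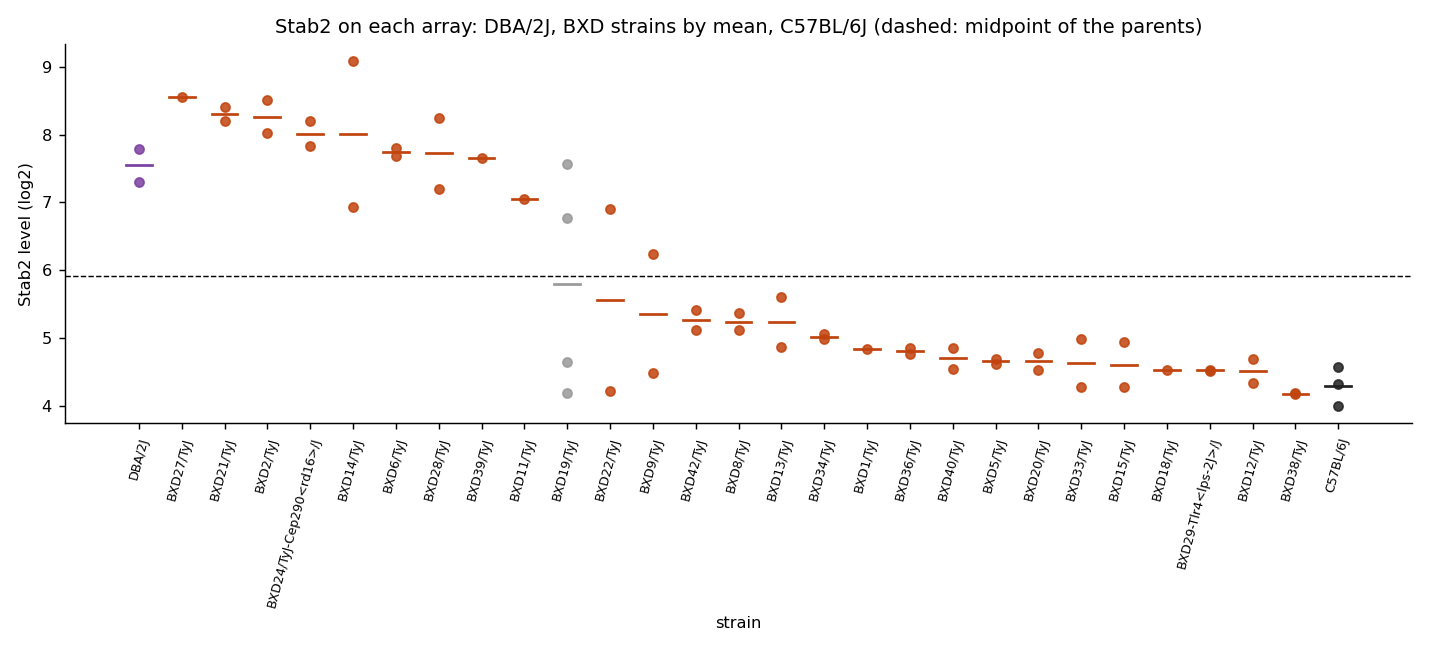
Stab2 level on each array (log2) in DBA/2J (left), the BXD strains ordered by mean, and C57BL/6J (right), with short bars for strain means and a dashed line at the midpoint of the parents (5.92). The 9 leftmost BXD strains lie wholly above the line, and BXD19/TyJ (grey) has 2 arrays on each side.

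The strain effect on Stab2 within BXD was called (ICC 0.706, adjusted p = 0.00031, limma), also without BXD19/TyJ (1.03e-05) and without the arrays with high thymocyte or squamous scores (0.0378). In all, 4 of the 13 member probe sets were called within BXD (Stab2, Scarb1 and 2 of Cd36), beside 15.1% of all probe sets. Within AXB/BXA calls numbered 0 of 13, beside 3.81%, and Stab2 ran from 4.16 in BXA24/PgnJ to 7.50 in BXA16/PgnJ. The BXA16/PgnJ arrays read 8.80, 8.28 and 5.42, where replicates 1 and 2 are those that did not resemble replicate 3. Without this strain the highest AXB/BXA mean was 5.31. Within BXH 1 of 13 was called (Stab1), beside 1.26%, and Stab2 ran from 4.25 to 5.31.

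Between families, AXB/BXA strains averaged 4.78 ± 0.62 (SD, n = 28) for Stab2 and BXD strains 5.90 ± 1.52 (n = 27). The difference of -1.13 (SE 0.285; BXD 2.19-fold higher) was called (adjusted p = 0.0166, limma) and was -1.23 (adjusted p = 0.00565) without BXA16/PgnJ and BXD19/TyJ. It was not called with replicate 2 of every strain alone (-0.83, adjusted p = 0.169) or without the arrays with high thymocyte or squamous scores (-0.85, adjusted p = 0.282). BXD strains also exceeded BXH strains (4.72 ± 0.39, n = 10) by 1.19, which was not called (adjusted p = 0.378). Member calls numbered 2 of 13 for AXB/BXA against BXD (Stab2 and Msr1 1448061_at), beside 2.22% of all probe sets. They numbered 0 for AXB/BXA against BXH, beside 0.322%, and 0 for BXD against BXH, beside 0.184%.

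Over the whole panel 15 of 93 strain means of Stab2 lay above 5.92, 9 of them BXD, 1 AXB/BXA, 0 BXH and 5 inbred. The AXB/BXA strain was BXA16/PgnJ, and without it 0 AXB/BXA means lay above 5.92. Besides DBA/2J, RIIIS/J (8.09 and 8.36) and SM/J (8.68 and 7.49) were high on both arrays. SEA/GnJ (4.97 and 8.53) and BTBR T<+> tf/J (4.65 and 7.51) were high on 1 array of 2. Because the means form a low and a high group, correlations with the scores are given within each. In the 78 low strains Stab2 rose with the node and spleen macrophage score (r = 0.663), the macrophage score (0.442) and the B cell score (0.411). With the endothelial, lymphatic endothelial and liver scores r was -0.116, 0.139 and 0.209. In the 15 high strains r was -0.346, -0.172 and -0.147 for the first 3 scores and -0.363, -0.249 and -0.191 for the endothelial, lymphatic endothelial and liver scores. These are descriptions with no test, and they were not recomputed without the strains that went against their labels. The high group includes SEA/GnJ, BTBR T<+> tf/J and BXA16/PgnJ, whose means average arrays from both sides of 5.92. In the low group the same holds for BXD19/TyJ, BXD22/TyJ, BXD9/TyJ, C57L/J, AXB6/PgnJ, BXH6/TyJ, AKR/J and BXA7/PgnJ. Both groups were also cut on Stab2 itself. Of 17 strains whose 2 arrays differed by more than 1 in Stab2, 14 differed the same way in the B cell score, 13 in the node and spleen macrophage score, 12 in the lymphatic endothelial score and 6 in the liver score.

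Some of these scores also differed between the parents. The node and spleen macrophage score was -0.00426 and 0.11 in DBA/2J and lay between -0.556 and -0.264 in C57BL/6J, where the panel ran from -0.781 to 2.16. The B cell score was -0.384 and -0.366 in DBA/2J and lay between -1.64 and -1.23 in C57BL/6J. DBA/2J was above C57BL/6J in both, and the part of these scores in the parental Stab2 difference was not tested. In the 15 arrays of the high BXD strains the B cell score ran from -1.87 to 2.75, and in the 36 others from -1.83 to 1.83, so these sets of arrays overlapped. Thymocyte scores exceeded 1 on 3 of the 15 arrays and on 3 of the 36, a larger share in the high strains. The genes most like Stab2 over all strains were Sfi1 (r = 0.514), the chemokine Cxcl14 (0.478) and the cytokine receptor subunit Csf2rb2 (0.458), none of them as close as the nearest genes of Stab1, Marco or Cd36. These values pool the low and high groups of strains and were not computed within each.

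Related receptors and lipid genes were set beside the members. Of 14 other measured receptors of modified lipids, apoptotic cells or microbes, 12 had a called strain effect, all but Ager and Cxcl16, with a median ICC of 0.356. The macrophage protein Cd5l ranged most, from 3.51 in AXB4/PgnJ to 8.74 in BXD2/TyJ, and Lgals3, a galectin, ran from 6.69 in BXD11/TyJ to 10.28 in BTBR T<+> tf/J. Of 15 measured genes of lipid handling 12 were called, all but Lpl, Fabp4 and Pdzk1, also with a median ICC of 0.356. Over all probe sets 46.5% were called, with a median ICC of 0.182. Both lists were counted with 1 probe set per gene, but the members and the background with every probe set. These shares and medians are therefore not in like units. By gene, 6 of the 8 scavenger receptors had at least 1 called probe set, a count with no share over all genes beside it. Apoe, the apolipoprotein that macrophages secrete, had an ICC of 0.618 and was lower in A/J and in C3H/HeJ than in C57BL/6J (log2 difference -1.26 and -0.995; adjusted p = 0.00416 and 0.0428). Npc1, the lysosomal cholesterol exporter, was lower in C3H/HeJ (-1.15, adjusted p = 0.00173). Of the 14 receptors 0 were called in any parental contrast, beside 0.645%, 0.524% and 1.25% of all probe sets, and 9 were called within BXD, beside 15.1%.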

How the data were processed

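Aorta RNA of 94 mouse strains was measured on 188 Affymetrix HT_MG-430A arrays. GCOS and RMA are named, per the submitters' processing notes, and their versions, settings and any build were not given in the sources used here. On the deposited log2 scale each probe set has 1 value per array. RMA usually includes background adjustment and quantile normalisation, which narrows differences in overall level between arrays. No further normalisation was applied. Array medians lay between 4.55 and 4.88. Of the probe sets, 89 controls were left out and 22327 tested. The number of arrays per strain limits the precision. Genes were named from the platform annotation (17783 probe sets with 1 symbol, 284 with several, 4260 not listed), and all 8 members matched a RefSeq gene table by Entrez ID.

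Computations used R 4.3.3, limma 3.58.1 and the package data.table (version 1.17.8). The strain effect and the effects within families were limma's moderated F tests over strains with 2 or more arrays. Parental contrasts came from a fit of 93 strains with 93 residual degrees of freedom. Families were contrasted on 1 mean per strain. Benjamini-Hochberg adjusted p-values over all probe sets below 0.05 were called. ICCs came from one-way variance components. Relations of strain means to scores used Pearson's r and Spearman's rho with 100000 permutations, two-sided, adjusted over the 24 planned relations, of which 11 passed (that of Stab2 with the macrophage score is given only within its low and high groups of strains). The fits were tested on simulated data with known changes. BXD32/TyJ was left out because an unexplained suffix stands in its descriptions. Promoters are from RefSeq (GRCm38.p6).

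The members, marker lists and tests were chosen with earlier results of these data known. The text names all member probe sets, for each member the 3 genes with the highest correlation over strain means, and members of the fixed lists. A member with several probe sets is represented in scores and relations by the one with the highest mean. The node and spleen macrophage, B cell and lung relations of Marco, the label check and the adrenal list (Star, Cyp11a1, Cyp21a1, Hsd3b1 and Mc2r, above 1 on 2 arrays) were chosen after seeing the data. Other lists were macrophage (above 1 on 4 arrays), adipocyte, brown adipocyte, endothelial, lymphatic endothelial and fibroblast (each above 1 on 0 arrays), smooth muscle (4), thymocyte (36), squamous epithelium (40), skeletal muscle (85), cardiac muscle (24), B cell (31), neutrophil (20), lung (57), liver (19) and node and spleen macrophage (8).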

Additional observations from a re-analysis of the deposited data

Results flagged for a closer look

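In groups of 4 to 10 values, the highest or lowest was checked for standing far from the rest (Dixon's test at 95%). Chance flags about 1 in 20 such groups, and 8 of 52 examined here were flagged. The groups are not independent, since probe sets of 1 gene and values of 1 array recur in them. These figures therefore cannot show an excess over chance. Of the flagged groups, 5 concern the 10 BXH strain means, and 4 of the 5 are BXH2/TyJ. BXH2/TyJ was low in all 3 Cd36 probe sets (10.29, 10.30 and 7.49, where the next strains lay at 11.54, 11.26 and 8.72) and high in Scarb1 (8.76, next 7.94). In both genes this came from replicate 1 (Cd36 1423166_at 9.04 against 11.53 on replicate 2, Scarb1 9.53 against 7.99). The beta-actin control difference of that array, 0.930, was close to the lowest of the panel (0.915), so its 3′ bias was small. The fifth is Stab1 in BXH9/TyJ (5.57, next 6.39), whose replicate 1 had a thymocyte score of 4.69. Within strains of 4 arrays, AXB19b/PgnJ replicate 1 was high at the Msr1 probe sets 1425434_a_at (3.70, next 3.40) and 1448061_at (4.64, next 3.59), and BXH4/TyJ replicate 4 was low for Olr1 (3.47, next 3.73). The values at 1425434_a_at and for Olr1 lie in the range seen for Xist in these males, and that at 1448061_at just above its highest value of 4.63.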

How the results depend on the processing

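Of 224 counts and relations recomputed under an alternative, 173 kept their side of the threshold or stayed within 1.5 times. No called value reversed its sign, while 60 of 803 recomputed differences of single members, all uncalled, changed theirs. Values that moved are given by setting, with the main value last.

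Without the 69 arrays whose thymocyte or squamous score exceeded 1 (117 remained), calls over all probe sets were 248 for A/J against C57BL/6J (144), 523 for C3H/HeJ (278), 230 within AXB/BXA (851), 1181 within BXD (3361), 113 within BXH (281), 199 for AXB/BXA against BXD (495), 34 for AXB/BXA against BXH (72) and 18 for BXD against BXH (41). Member calls were then 0 within BXH (1) and 0 for AXB/BXA against BXD (2). With the thymocyte, squamous and skeletal muscle scores as covariates there were 223 for A/J, 458 for C3H/HeJ and 1349 within AXB/BXA, with 1 member there (0) and 0 members within BXH. Member calls within BXH were also 0 with arrays centred on their medians, with only probe sets averaging above 5, with the array number block and with the B cell score as a covariate. With only probe sets above 5, AXB/BXA against BXD kept 1 member (2), since Msr1 1448061_at was not tested. With the BXD32/TyJ arrays, 1627 probe sets and 1 member were called within BXD (3361 and 4). With only the parents in the fit, calls were 78, 65 and 152 for A/J, DBA/2J and C3H/HeJ (144, 117 and 278).

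Leaving out single parental arrays gave 53 to 272 calls for A/J, 54 to 130 for DBA/2J (members 0 to 1) and 73 to 1123 for C3H/HeJ (members 0 to 1). A single array of each strain gave 203 to 427 calls for AXB/BXA against BXD (members 0 to 1), 38 for AXB/BXA against BXH and 11 to 20 for BXD against BXH. In settings added after seeing the data, members called within BXD were 2 without the strains that went against their labels (4), and within AXB/BXA 1 without BXA12/PgnJ and 2 with the B cell score as a covariate (0). With replicate 1 of every strain, Cd36 and Olr1 passed with the adipocyte (r = 0.311) and endothelial (0.268) scores, and Marco with the endothelial (-0.0843) and Scarb1 with the adipocyte score (0.206) did not. The causes were not tested. No paired analysis was possible because the replicate numbers give only the order of accession. Most strains had 2 arrays, so 1 array can move a strain mean, and Colec12, Olr1 and 3 Msr1 probe sets lay near background. The array median of Marco (4.153) was also below the highest Xist value in these males (4.63). That of Stab2 (4.688) was just above it.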
